A study of Mus musculus with 69 samples.

Results

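The genes Havcr1, Lcn2, Krt20, Tnfrsf12a, Fga, Fgb, Fgg, Clu, Spp1 and Vcam1 report injury of the kidney tubule, and each was followed in every animal of the series. They were taken by symbol from the 4 deposited expression tables, and all 10 members were found among the 52404 genes listed in all 4 tables. The libraries came from tubules dissected by hand from kidneys of wild-type male C57BL/6 mice, 7 weeks old at surgery. The mice had lost a whole kidney by unilateral nephrectomy (UNx) or had had a sham operation, and the labels name no further treatment. The segment was either PT-S1, the first part of the proximal tubule, or CCD, the cortical collecting duct, at 24 h or 72 h. In PT-S1 there were 3 sham and 4 UNx animals at 24 h (8 and 9 libraries) and 5 and 5 animals at 72 h (12 and 12 libraries). In CCD there were 4 sham and 3 UNx animals at 24 h (8 and 7 libraries) and 4 and 4 animals at 72 h (7 and 6 libraries).

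A healthy tubule makes little of most of these genes, and a damaged tubule makes much of several of them, which is why some are used as markers of acute kidney injury. Havcr1 encodes KIM-1, a phosphatidylserine receptor that injured proximal tubule cells place on their apical surface. Lcn2 encodes NGAL, a carrier of bacterial siderophores that is made by injured distal tubule and by neutrophils. Krt20 is an intermediate filament keratin of injured tubule cells, and Tnfrsf12a encodes Fn14, the receptor of the cytokine TWEAK. Fga, Fgb and Fgg encode the 3 chains of fibrinogen, a clotting protein made mostly by liver during the acute phase response. Clu encodes clusterin, a secreted chaperone, and Spp1 encodes osteopontin, a secreted ligand of integrins. Vcam1 encodes an adhesion molecule for leukocytes that is also known from proximal tubule cells after incomplete repair.

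The 69 libraries are given as TPM, a share of transcripts that corrects for gene length and adds up to the same total in each library, so sequencing depth is unknown. Differences are on the scale log2(TPM + 1), averaged over the libraries of an animal, and the animal is the replicate. A difference between UNx and sham was called when limma's adjusted p was under 0.05 over all genes tested, which were those with a mean of at least 1 TPM. The 5 proximal S1/S2 markers summed to between 6132 and 14679 TPM in PT-S1 animals and to at most 67.2 TPM in CCD animals, while the 5 principal cell markers summed to between 17704 and 62804 TPM in CCD animals and to at most 135 TPM in PT-S1 animals. The 5 markers of proximal S3, the last part of that tubule, varied widely in PT-S1 animals, with sums from 12.1 to 515 TPM. Of the 5 markers of the thick ascending limb, Kcnj1, which principal cells also make, was between 752 and 2067 TPM in CCD animals. Umod was at most 54.9 TPM in CCD at 72 h and had a median of 176 TPM at 24 h, where sham 2 stood apart with 3028 TPM of Umod and 402 TPM of Slc12a1. The median correlation of a library with the others of its table was under 0.92 for 4 PT-S1 libraries (lowest 0.824) and 1 CCD library (0.914). The tissue pieces hold mixed cells, and fewer cells of a type cannot be told apart from less RNA per cell. In PT-S1 most genes were lower in UNx, with a median difference of -0.19 at 24 h and -0.29 at 72 h, and the median was -0.04 and 0.01 in CCD, so PT-S1 differences are also given relative to this median. Without the libraries of median correlation under 0.92 the PT-S1 median was -0.21 at 24 h but -0.02 at 72 h. The 72 h median, and the values relative to it, thus depend on low-correlation libraries of UNx 1 and UNx 2.

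The promoters of the 3 fibrinogen genes are shown because Fga and Fgg varied together across animals and because the genes are neighbours. RefSeq windows on GRCm38.p6 were found for 8 of the 10 members, 11 windows in all, and Clu and Vcam1 had none. The expression files come from another build, GRCm39, so these positions belong to the sequences only. The 250 bases before the start are printed 5′ to 3′ in the direction of transcription. They lie at chr3:83025903-83026152 on the plus strand for Fga, at chr3:83049864-83050113 on the minus strand for Fgb and at chr3:83007474-83007723 on the plus strand for Fgg. Capitals mark matches, on either strand, to CTGGGAA (an element of acute phase promoters), TTCNNNGAA (STAT), TTGCNNAA (C/EBP), TGANTCA (AP-1) or GTTAAT (HNF1, shared core).
Fga: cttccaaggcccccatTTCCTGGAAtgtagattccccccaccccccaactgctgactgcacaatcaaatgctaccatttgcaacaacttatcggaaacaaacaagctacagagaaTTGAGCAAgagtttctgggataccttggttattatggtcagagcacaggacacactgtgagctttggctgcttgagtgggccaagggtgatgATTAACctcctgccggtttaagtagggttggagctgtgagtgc
Fgb: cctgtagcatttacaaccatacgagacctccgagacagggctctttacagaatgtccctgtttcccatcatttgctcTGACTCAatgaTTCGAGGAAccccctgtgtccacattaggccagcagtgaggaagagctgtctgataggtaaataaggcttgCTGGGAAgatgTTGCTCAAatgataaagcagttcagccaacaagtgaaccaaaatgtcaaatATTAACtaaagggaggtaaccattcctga
Fgg: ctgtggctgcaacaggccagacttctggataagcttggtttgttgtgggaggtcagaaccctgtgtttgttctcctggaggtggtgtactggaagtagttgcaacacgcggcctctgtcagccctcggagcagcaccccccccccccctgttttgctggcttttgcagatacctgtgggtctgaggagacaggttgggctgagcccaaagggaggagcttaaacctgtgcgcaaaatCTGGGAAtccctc
The acute phase element CTGGGAA stands in the Fgb window, 91 to 85 bases before the start, and in the Fgg window, 13 to 7 bases before it. It occurs in 9.1% of all 32851 windows of the table. TTCNNNGAA stands in the Fga and Fgb windows and in 7.02% of all windows. TTGCNNAA stands in Fga, in Fgb, in Lcn2, in a window each of Havcr1 and Spp1, against 9.56% of all windows. TGANTCA was found in Fgb alone among the 11 windows and in 6.75% of all. GTTAAT was found in Fga, Fgb, Havcr1 and Spp1 and in 6.43% of all. The letters of CTGGGAA can overlap those of TTCNNNGAA, and a match is a description of the letters and not of a bound factor.

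In PT-S1 at 24 h a single mouse, UNx 3, carried much of the UNx difference for Havcr1, Lcn2, Fga and Fgg, and Tnfrsf12a was higher in each UNx animal than in any sham animal. No member passed the threshold, and neither did any other gene, so 0% of the 11874 genes tested were called. At an unadjusted p under 0.05 limma gave 2109 genes and 1 member, Tnfrsf12a. Of the 10 members 8 were tested, and Krt20 and Vcam1 had a mean under 1 TPM. The values of Havcr1 and Lcn2 reached the filter only through the animal UNx 3. The animals of both groups did not overlap for 3 of the 8 tested members, Havcr1, Tnfrsf12a and Fgg, against 14.9% of all genes tested, a share that counts Havcr1 although it passed the filter through its high group.

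Havcr1, the KIM-1 gene, was close to 0 in all 3 sham animals, at 0.123, 0.065 and 0.0267 TPM. In UNx it was 0.345 TPM in UNx 1, 0.745 in UNx 2, 17.3 in UNx 3 and 1.67 in UNx 4. All 4 UNx animals lay above the sham animals, yet UNx 3 stood far above the other UNx animals. The pattern went down to the level of libraries. Both libraries of UNx 3 were high, at 15.2 and 19.5 TPM, while in UNx 4 the first library read 4.83 TPM and the other two 0.14 and 0.05. In UNx 2 the libraries read 0 and 1.49 TPM. The difference was 1.45 on the log2(TPM + 1) scale (SE 0.75, 95% interval -0.21 to 3.12 and limma adjusted p = 0.315), and 1.65 when set against the median gene. For a gene so near 0 it moved with the pseudocount, to 2.82 with 0.1 TPM and 0.67 with 5 TPM.

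Lcn2, the NGAL gene, was at 0 in 2 of 3 sham animals and 0.04 TPM in sham 2. It was at 0 in UNx 1 and UNx 2, at 14.3 TPM in UNx 3 and at 0.09 TPM in UNx 4. Both libraries of UNx 3 carried it, at 13.6 and 15.1 TPM, and in every other library of the table it was at most 0.27 TPM. The difference of 0.99 (SE 0.82, limma adjusted p = 0.498, 1.19 relative to the median gene) therefore describes UNx 3, and it was 1.81 with a pseudocount of 0.1 TPM and 0.49 with 5 TPM. Krt20, the keratin, followed the same animals at a lower level. It was 0.21, 0.365 and 0.287 TPM in sham and 0.16, 0.465, 4.0 and 1.05 TPM in UNx 1 to UNx 4. The first library of UNx 4, which was high in Havcr1, held 2.17 TPM of Krt20, and its other two libraries held 0.27 and 0.71.

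Sums of marker genes of several other cell types were highest in UNx 3. The 5 neutrophil markers summed to 14.3 TPM in UNx 3, to at most 0.137 TPM in the sham animals and to at most 0.09 TPM in the other UNx animals. S100a8 reached 6.9 TPM and S100a9 7.12 TPM there, while Csf3r and Retnlg were at most 0.125 and 0.185 TPM, and Ly6g was at most 0.0367 TPM in any animal. The 4 globin genes summed to 56.3 TPM in UNx 3 and to at most 0.387 TPM in any other animal. The 8 macrophage and leukocyte markers summed to 40.6 TPM in UNx 3, to between 22.8 and 39.0 TPM in sham and to between 15.2 and 40.6 TPM over the UNx group. The endothelial markers summed to 182 TPM in UNx 3, to between 67.2 and 92.1 TPM in the other UNx animals and to between 61.2 and 159 TPM in sham. The podocyte markers summed to 8.05 TPM there and to at most 4.03 TPM elsewhere, and those of fibroblasts and mural cells to 5.49 TPM and at most 2.36 TPM. Its sum of proximal S1/S2 markers was 7570 TPM, the lowest of the table, against 10676 to 11244 in the other UNx animals and 11166 to 13790 in sham, although Slc22a6 among them was highest in UNx 3 (1303 TPM, median 424). The proximal S3 markers summed to 77.8, 309, 220 and 13.4 TPM in UNx 1 to UNx 4 and to between 26.2 and 130 TPM in sham. Among them Slc5a8 and Atp11a were highest in UNx 3, and Slc7a13, Slc22a7 and Cyp7b1 in UNx 2. The part of these cells in the values of Havcr1, Lcn2 and Krt20 was not tested. In the 72 h table UNx 2 had a neutrophil sum of 44.0 TPM with Lcn2 at 0.155 TPM.

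**Figure D1:**
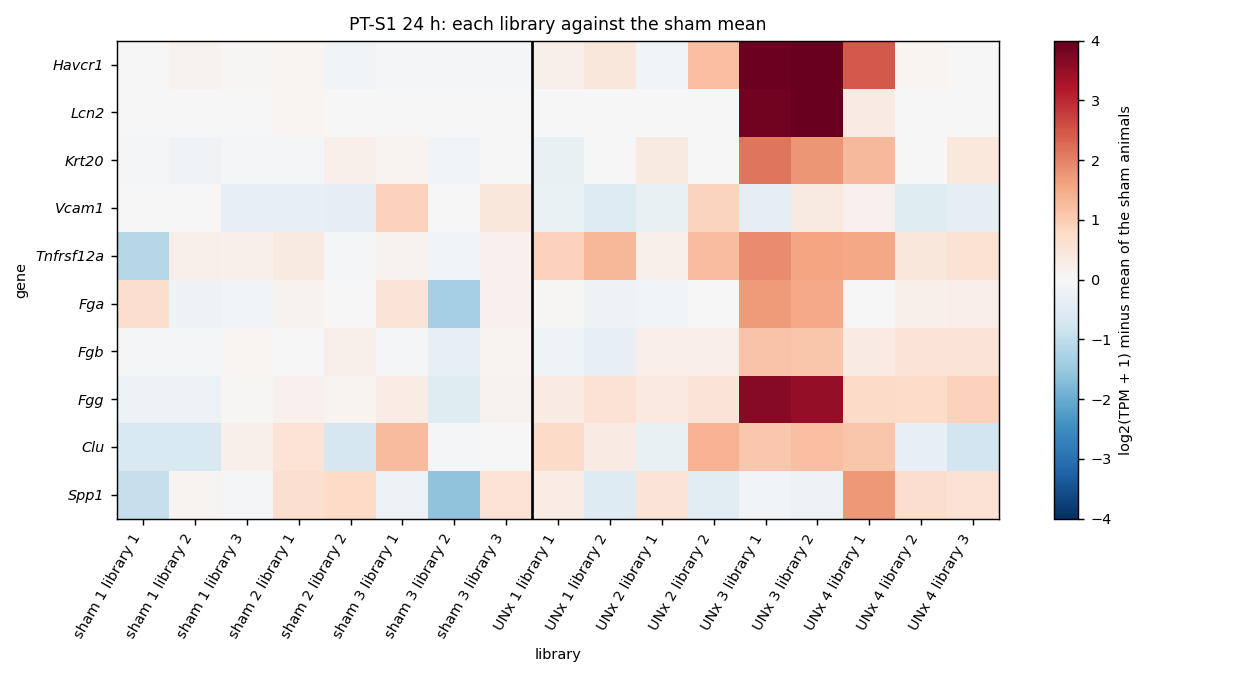
Each cell is a library of PT-S1 at 24 h, coloured by its log2(TPM + 1) minus the mean of the sham animals, with colours ending at -4 and 4; sham libraries stand left of the line and UNx libraries right of it, numbered in deposited order within an animal. Havcr1, Lcn2 and Fgg are deep red in both libraries of UNx 3, and Havcr1 and Krt20 are red in the first library of UNx 4. Tnfrsf12a runs from pale to red in the UNx libraries, with the lowest of them below the highest sham library.

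Tnfrsf12a, the Fn14 receptor, was the member with the smallest p in this table. It was 32.4, 39.8 and 36.6 TPM in sham and 78.5, 62.2, 120.0 and 68.7 TPM in UNx 1 to UNx 4. The lowest UNx animal lay above the highest sham animal. At library level the sham libraries ran from 15.4 to 45.5 TPM and the UNx libraries from 41.6 to 132 TPM. The sham animals averaged 36.3 ± 3.73 TPM (SD, n = 3) and the UNx animals 82.3 ± 25.9 TPM (SD, n = 4). The difference was 1.12 (SE 0.24, 95% interval 0.59 to 1.65), and 1.31 when set against the median gene. Its p before adjustment was 7.7e-04, and the limma adjusted p of 0.228 did not pass. Leaving out each animal in turn gave differences from 0.91, without UNx 3, to 1.25, without UNx 2, and limma adjusted p between 0.116 (without UNx 3) and 0.672 (without sham 1). Over the other settings the limma adjusted p ran from 0.0373 to 0.383, and it passed only with every library entered and the animal as a random effect (0.0373).

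The fibrinogen chains were each highest in UNx 3. Fgg, the gamma chain, was 6.47, 8.03 and 7.33 TPM in sham and 10.3, 10.1, 97.3 and 13.3 TPM in UNx. All 4 UNx animals lay above the sham animals, with UNx 3 at 101 and 93.4 TPM in its libraries. The difference was 1.32 (SE 0.64, limma adjusted p = 0.300), and it was 0.57 without UNx 3 (limma adjusted p = 0.164). Fga, the alpha chain, was 17.8, 16.4 and 15.3 TPM in sham and 14.9, 14.8, 49.4 and 17.4 TPM in UNx. Apart from UNx 3 the groups overlapped, and the difference of 0.41 (SE 0.37, limma adjusted p = 0.532) became 0.01 without that animal. Fgb, the beta chain, was the lowest of the chains, at 1.02, 1.24 and 0.943 TPM in sham and 0.735, 1.48, 3.46 and 1.82 TPM in UNx. Its difference was 0.40 (SE 0.30, limma adjusted p = 0.454) and 0.16 without UNx 3. Relative to the median gene the differences of Fgg, Fga and Fgb were 1.52, 0.60 and 0.59. Fga stood above Fgg in the 3 sham animals and in UNx 1, UNx 2 and UNx 4, and Fgg stood above Fga in UNx 3. At 72 h the TPM of Fgg was also above that of Fga in sham 1, sham 2, sham 3, UNx 1, UNx 4 and UNx 5.

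The secreted proteins did not separate the groups. Clu, the chaperone gene, was 0.583, 1.02 and 1.82 TPM in sham and 1.88, 2.35, 3.27 and 1.29 TPM in UNx. UNx 4 fell within the sham range, and the difference was 0.56 (SE 0.29, limma adjusted p = 0.317), or 0.76 with the median gene taken as 0. Spp1, the osteopontin gene, was by far the most abundant member, at 1182, 2296 and 1224 TPM in sham and 1345, 1501, 1233 and 2965 TPM in UNx. UNx 4 was its highest animal and its first library held 4576 TPM, the same library that was high in Havcr1 and Krt20. The difference of 0.19 (SE 0.34, limma adjusted p = 0.761, 0.38 relative to the median gene) became -0.08 without UNx 4. Vcam1 stayed between 0.24 and 1.33 TPM in all animals.

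**Figure D2:**
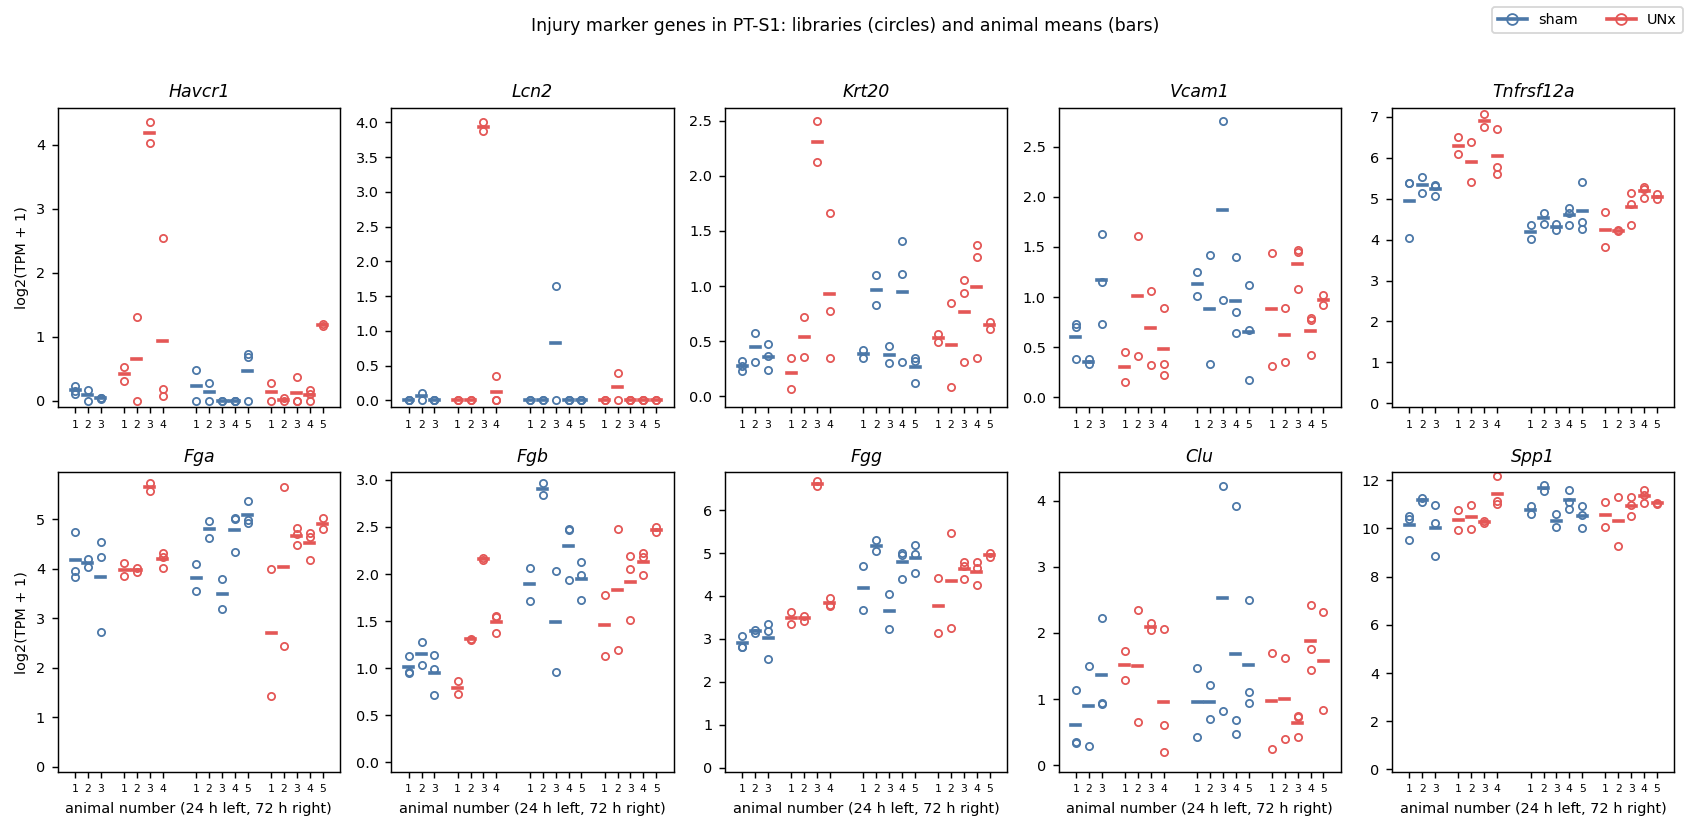
Values of the 10 members in PT-S1 on the log2(TPM + 1) scale, with circles for libraries, bars for animal means, sham in blue and UNx in red, and the 24 h animals left of the 72 h animals in each panel. UNx 3 at 24 h stands apart in Havcr1, Lcn2, Krt20, Fga and Fgg, the 24 h UNx animals lie above sham in Tnfrsf12a, and sham and UNx overlap in every panel at 72 h.

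At 72 h no member separated the groups in PT-S1. Of the 7 members tested none passed and none had an unadjusted p under 0.05, while limma called 0% of the 11886 genes tested and gave 2432 at an unadjusted p under 0.05. The groups overlapped for all 7, against 5.56% of all genes whose groups did not overlap. Havcr1 was at most 0.423 TPM in the 5 sham animals and 0.105, 0.015, 0.0967 and 0.0667 TPM in UNx 1 to UNx 4, and UNx 5 alone read 1.28 TPM, with 1.31 and 1.26 in its libraries. Lcn2 was at 0 in 8 of 10 animals. The exceptions were sham 3 at 1.06 TPM, all of it from a library of 2.13 TPM, and UNx 2 at 0.155 TPM. Krt20 lay between 0.203 and 1.02 TPM in sham and between 0.43 and 1.09 TPM in UNx.

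Tnfrsf12a had a lower level in the 72 h table than at 24 h, and this difference in level was not tested. It was 17.3, 22.0, 18.8, 23.3 and 26.7 TPM in sham and 18.8, 17.6, 27.3, 35.5 and 32.1 TPM in UNx. UNx 3, UNx 4 and UNx 5 lay above all sham animals and UNx 1 and UNx 2 among the lowest, with sham 1 and sham 3. In UNx 1, UNx 2, sham 1 and sham 3 the proximal S1/S2 markers summed to 8187, 8403, 8811 and 6132 TPM. The other animals had sums of at least 11460 TPM, and the part of this content in the values was not tested. The difference of Tnfrsf12a was 0.23 (SE 0.22, 95% interval -0.24 to 0.71, limma adjusted p = 0.484), and 0.52 when set against the median gene. Quantile normalization gave 0.53 (limma adjusted p = 0.224) and median-ratio scaling 0.61 (limma adjusted p = 0.264). UNx 1 and UNx 2 each hold a library of low median correlation (0.825 and 0.843), and the difference was 0.32 without these libraries (limma adjusted p = 0.357). Leaving out single animals gave 0.11 (without UNx 4) to 0.36 (without UNx 2). The change of its UNx difference from 24 h to 72 h was -0.88 (SE 0.34, p before adjustment 0.0195, limma adjusted p = 0.998), in a comparison that called 0% of 11455 genes and gave 381 at an unadjusted p under 0.05.

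The fibrinogen chains did not separate at 72 h. Fga was 13.4, 27.0, 10.5, 27.4 and 33.5 TPM in sham and 8.32, 27.0, 24.6, 22.2 and 29.2 TPM in UNx. Fgg was 18.4, 35.3, 12.0, 27.1 and 29.2 TPM in sham and 14.1, 25.9, 23.9, 22.9 and 29.9 TPM in UNx. The same animals, UNx 1 and sham 3, were lowest for both chains. They also had the lowest sums of the proximal S1/S2 markers at 72 h, 8187 and 6132 TPM, whose part was not tested. Fgb ranged from 2.01 to 6.49 TPM in sham and from 1.81 to 4.55 TPM in UNx. The differences were -0.23 (SE 0.42) for Fga, -0.08 (SE 0.30) for Fgg and -0.14 (SE 0.26) for Fgb, with limma adjusted p of 0.731, 0.876 and 0.730. Relative to the median gene they were 0.06, 0.21 and 0.14, and all 3 were also positive, at 0.09, 0.28 and 0.12, when libraries were scaled by median ratios.

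Clu, Spp1 and Vcam1 also overlapped at 72 h. Clu was 1.06, 0.97, 9.23, 5.03 and 2.24 TPM in sham and 1.21, 1.19, 0.557, 2.83 and 2.37 TPM in UNx. The 2 highest sham animals owed their level to single libraries of 17.7 TPM in sham 3 and 14.1 TPM in sham 4. Spp1 ranged from 1309 to 3296 TPM in sham and from 1574 to 2633 TPM in UNx, and Vcam1 from 0.63 to 3.36 and from 0.565 to 1.54 TPM. The differences were -0.31 (SE 0.32), -0.06 (SE 0.27, positive at 0.33 under median-ratio scaling) and -0.20 (SE 0.23), with limma adjusted p of 0.516, 0.905 and 0.558. Relative to the median gene they were -0.03, 0.23 and 0.08, so that the signs of Spp1 and Vcam1 turned. That median was -0.29 with all libraries and -0.02 without those of low correlation.

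Fga and Fgg varied together across the animals of PT-S1. With each animal expressed relative to the mean of its table and group, Pearson's r was 0.841 and Spearman's rho 0.924 over 17 animals (permutation p adjusted over 12 relations 3.6e-04 and 1.2e-04). The permutations exchanged these relative values freely over times and groups. They took no account of the group means removed before, so all permutation p given here can be too small. Pearson's r was 0.892 without the 2 animals farthest from the median of Fga, 0.980 over the 7 animals at 24 h and 0.919 over the 10 at 72 h. Tnfrsf12a followed Fga (r = 0.786, rho = 0.779, adjusted permutation p of 0.00102 and 0.00198 over 17 animals) and Fgg (r = 0.741, rho = 0.740, adjusted permutation p of 0.00132 and 0.00364 over 17 animals). Without the 2 animals farthest from the median of Tnfrsf12a these r were 0.781 and 0.718. Within times they were 0.817 and 0.882 at 24 h and 0.780 and 0.657 at 72 h. At 24 h UNx 3 was the highest animal for Tnfrsf12a, Fga and Fgg. Its Fga was 5.65 on the log2(TPM + 1) scale, against 3.84 to 4.19 in the other animals of that time. The r at 24 h, also that of Fga with Fgg, rest largely on UNx 3 and were not calculated without it. Both genes of a pair were read from the same libraries and share their scaling. The part of the proximal marker content given above in these relations was not tested. Spp1 had an r of 0.256, 0.250 and 0.122 with Tnfrsf12a, Fga and Fgg (permutation p adjusted over the same relations 0.363, 0.363 and 0.656).

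**Figure D3:**
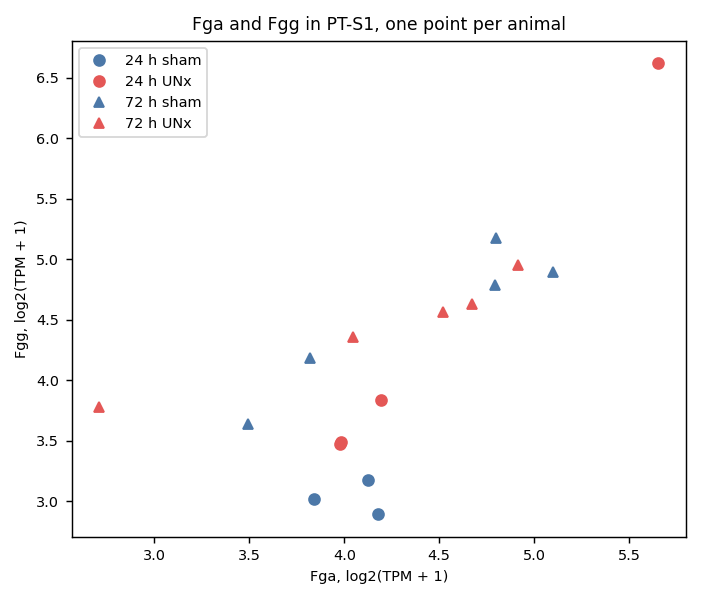
Fgg against Fga in PT-S1 on the log2(TPM + 1) scale, a point for each of the 17 animals, circles for 24 h and triangles for 72 h, blue for sham and red for UNx. The points of 72 h rise from lower left to upper right. UNx 3 at 24 h is the point at the upper right, and the other 24 h points lie close together in Fga.

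The genes of PT-S1 most like Tnfrsf12a across the 17 animals, among 8163 genes of at least 5 TPM in both tables, were Mettl5 (r = 0.930), Tspan4 (r = 0.929) and Tmem192 (r = 0.92). For Fga they were St3gal6 (0.916), Sptlc2 (0.908) and Hsd17b7 (0.903), for Fgg Mgst1 (0.886), Tmem219 (0.849) and Fga (0.841), and for Spp1 Prss23 (0.858), Hexa (0.851) and Slc25a4 (0.847). These r are descriptions, chosen as the highest of many.

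In CCD the members fell into expressed and silent groups. Lcn2, Tnfrsf12a, Clu and Spp1 were abundant, Vcam1 was low, and Havcr1, Krt20, Fga, Fgb and Fgg were at most 0.76 TPM in every library, so that 5 members were tested at each time. Lcn2, which was at 0 in most PT-S1 animals, was between 57.5 and 251 TPM in all CCD libraries, and Clu, at most 17.7 TPM in any PT-S1 library, was between 164 and 2438 TPM in CCD.

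At 24 h in CCD, Clu was the member with the smallest p. It was 919, 595, 869 and 726 TPM in sham and 313, 507 and 413 TPM in UNx. The highest UNx animal lay below the lowest sham animal, which was so for 1 of the 5 tested members and for 15.1% of all genes tested. The sham animals averaged 777 ± 147 TPM (SD, n = 4) and the UNx animals 411 ± 97.0 TPM (SD, n = 3), and the difference was -0.99 (SE 0.21, 95% interval -1.47 to -0.51). The limma adjusted p of 0.0697 missed the threshold, in a comparison that called 0.987% of 13775 genes and no member (2 at an unadjusted p under 0.05, Clu and Tnfrsf12a). It passed with every library entered and the animal as a random effect (limma adjusted p = 0.0400), and leaving out each animal in turn gave adjusted p between 0.0796 and 0.193. Without sham 2, the animal high in Umod, the difference of Clu was -1.11 (limma adjusted p = 0.0796). The principal cell markers, which summed to between 43479 and 62804 TPM in UNx and between 20545 and 46211 TPM in sham, overlapped between the groups, and their part in the value of Clu was not tested.

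The other members at 24 h in CCD overlapped. Tnfrsf12a was 161, 115, 86.8 and 154 TPM in sham and 64.3, 107 and 88.5 TPM in UNx, a difference of -0.56 (SE 0.23, limma adjusted p = 0.284). Lcn2 was 138, 188, 194 and 242 TPM in sham and 112, 113 and 193 TPM in UNx, a difference of -0.49 (SE 0.23, limma adjusted p = 0.360). UNx 3 was in the sham range for both genes. UNx 2, the CCD animal with the highest neutrophil sum, 18.2 TPM against at most 0.435 TPM in sham, had Lcn2 at 113 TPM. Spp1 was 689, 716, 455 and 389 TPM in sham and 690, 533 and 875 TPM in UNx (difference 0.40, SE 0.23, limma adjusted p = 0.451). Vcam1 was between 1.78 and 2.72 TPM in sham and between 1.99 and 3.53 TPM in UNx (difference 0.16, SE 0.19, limma adjusted p = 0.742).

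**Figure D4:**
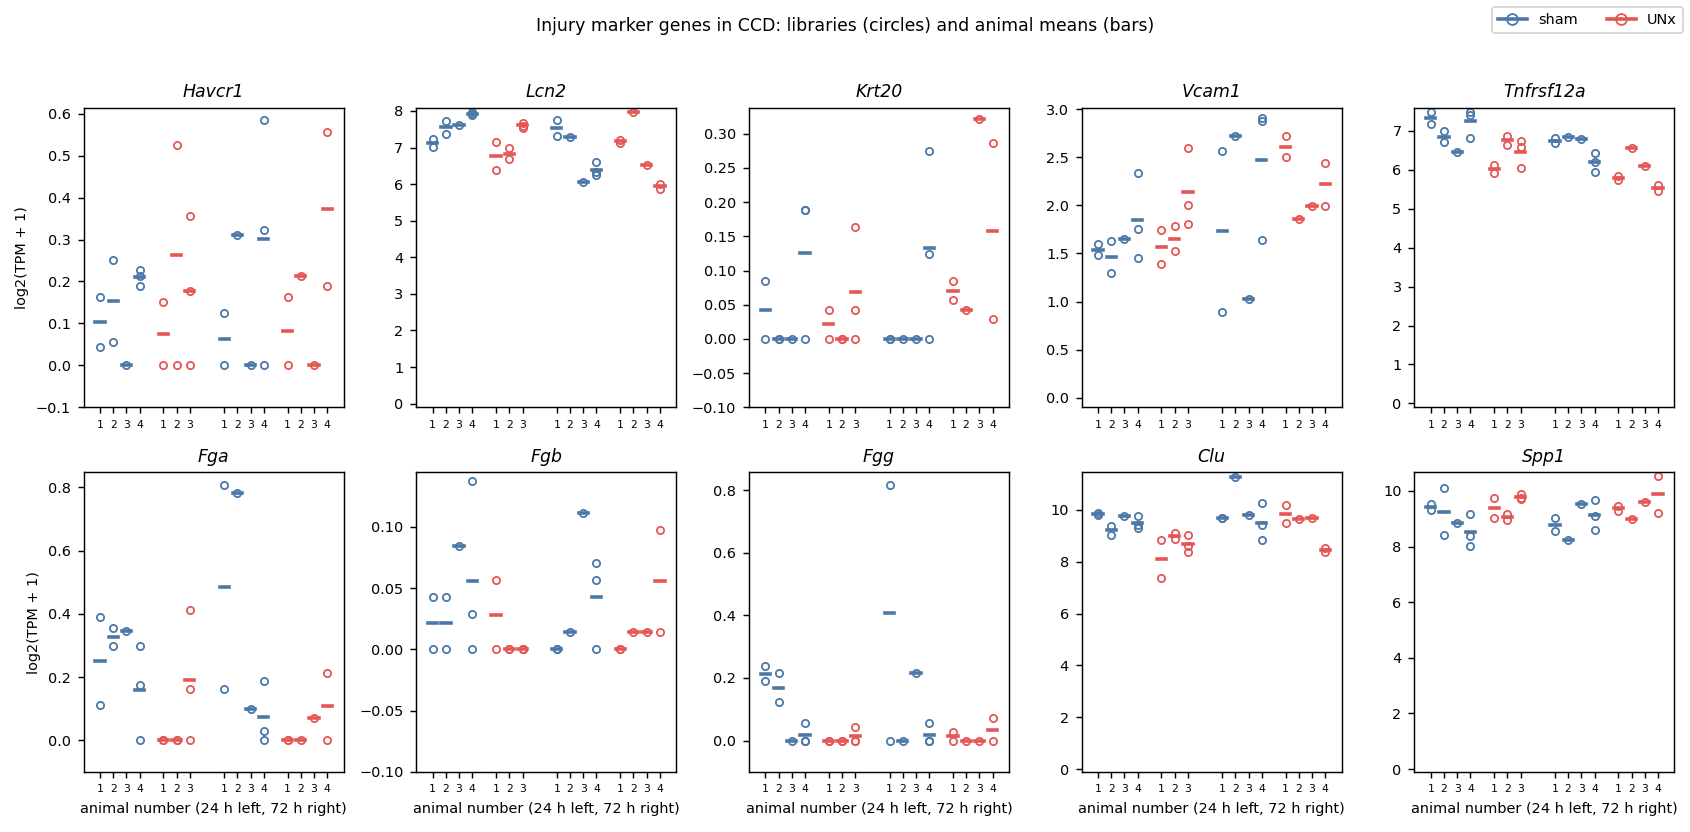
Values of the 10 members in CCD on the log2(TPM + 1) scale, with circles for libraries, bars for animal means, sham in blue and UNx in red, and the 24 h animals left of the 72 h animals. Clu at 24 h is lower in all 3 UNx animals than in the 4 sham animals, and Havcr1, Krt20, Fga, Fgb and Fgg lie near 0 throughout, on axes that span less than 1 log2 unit.

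At 72 h in CCD, Tnfrsf12a was 107, 114, 111 and 72.9 TPM in sham and 54.4, 93.7, 66.9 and 45.4 TPM in UNx. Sham 4 lay below UNx 2 and kept the groups from separating, as the groups of the other members overlapped too, against 4.77% of all genes whose groups did not. The difference was -0.65 (SE 0.22, 95% interval -1.15 to -0.15, p before adjustment 0.0155, limma adjusted p = 0.458). Limma called no member (Tnfrsf12a alone had an unadjusted p under 0.05) and 0.595% of 13770 genes. Clu was 820, 2438, 892 and 792 TPM in sham and 942, 810, 833 and 350 TPM in UNx, with a difference of -0.65 (SE 0.41, limma adjusted p = 0.843). That difference was -0.25 without sham 2 and -0.33 without UNx 4, each an animal that stood apart. Spp1 was 444, 297, 728 and 584 TPM in sham and 665, 502, 770 and 1038 TPM in UNx (difference 0.54, SE 0.27, limma adjusted p = 0.726). Lcn2 was 187, 154, 65.1 and 83.7 TPM in sham and 143, 251, 91.5 and 60.5 TPM in UNx (difference 0.09, SE 0.45, limma adjusted p = 0.986), and its sign turned when single animals were left out. Vcam1 was 2.88, 5.60, 1.03 and 5.0 TPM in sham and 5.13, 2.64, 2.99 and 3.71 TPM in UNx (difference 0.19, SE 0.36, limma adjusted p = 0.962). In the change from 24 h to 72 h, limma called 0% of 13253 genes (658 at an unadjusted p under 0.05) and the members' adjusted p were at least 0.971.

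Lcn2 and Spp1 ran against each other across the CCD animals, with r = -0.663 and rho = -0.693 over 15 animals (permutation p adjusted over 12 relations 0.0207 and 0.0148). These p can be too small, as values were exchanged freely over times and groups. The SD of Lcn2 between animal means differed between times, 0.39 at 24 h and 0.80 at 72 h. Pearson's r was -0.115 over the 7 animals at 24 h and -0.870 over the 8 at 72 h. Without the 2 animals farthest from the median of Lcn2 it was -0.552. The genes most like Lcn2 over the 15 animals, among 10142 genes, were Anxa1 (r = 0.915), Nme7 (0.909) and Plaur (0.880). For Tnfrsf12a they were Stap2 (0.880), Relb (0.844) and Trp53 (0.843), for Clu Rras2 (0.915), Nsun5 (0.907) and Olfm4 (0.886), and for Spp1 Got1 (0.897), Gsta2 (0.838) and Pgm2 (0.836).

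Of the 4 members tested for a difference between segments at 24 h, Tnfrsf12a, Clu and Lcn2 had UNx differences of opposite sign in PT-S1 and CCD. The UNx difference of Tnfrsf12a was 1.12 in PT-S1 and -0.56 in CCD, and the test of the difference between segments gave -1.68 (SE 0.35, limma adjusted p = 0.0932), with 0.137% of 10988 genes called. For Clu the values were 0.56 and -0.99, and the difference between segments was -1.55 (SE 0.37, limma adjusted p = 0.125). In PT-S1 at 24 h Clu averaged only 1.74 TPM over all animals, and its groups overlapped. Its SD there was 0.76 between libraries of an animal and 0.43 between animal means. For Lcn2, whose PT-S1 value describes UNx 3, the values were 0.99 and -0.49, and the difference between segments was -1.48 (limma adjusted p = 0.472). None passed as fitted. Tnfrsf12a passed with quantile normalization (limma adjusted p = 0.0489), median-ratio scaling (0.0331), the random-effect fit (0.0129), without the libraries of low correlation (0.0446) and without PT-S1 sham 3 (0.0497). Clu passed with quantile normalization (0.0489) and without PT-S1 sham 3 (0.0469) or UNx 4 (0.0470). The labels do not say whether PT-S1 and CCD came from the same mice. At 72 h the difference for Tnfrsf12a was -0.89 (SE 0.33, limma adjusted p = 0.495), in a comparison that called 0% of 11035 genes (1030 at an unadjusted p under 0.05).

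**Figure D5:**
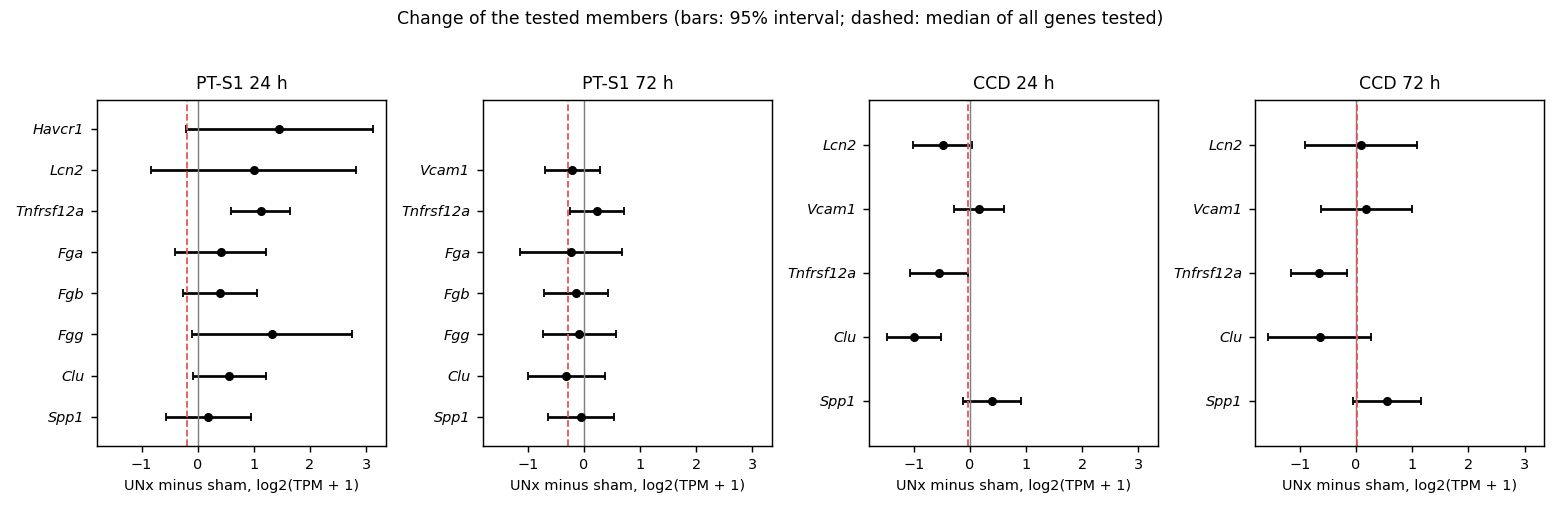
UNx minus sham difference of each tested member on the log2(TPM + 1) scale, with 95% intervals, in the 4 tables; the solid line is 0 and the dashed line the median of all genes tested. Tnfrsf12a lies right of 0 in PT-S1 at 24 h and left of it in CCD at both times, Clu lies left of 0 in CCD at 24 h, and the intervals of Havcr1, Lcn2 and Fgg in PT-S1 at 24 h are wide.

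Beyond the members, 3 further lists were read in each table, and limma called 0 genes of each in either direction. At an unadjusted p under 0.05 the injury list held 0 higher and 0 lower genes in the 24 h table of PT-S1, 0 and 1 in its 72 h table, 0 and 4 in the 24 h table of CCD, and 1 and 2 in its 72 h table. Over all genes tested the same counts were 308 and 1801 of 11874, 158 and 2274 of 11886, 765 and 1373 of 13775, and 642 and 389 of 13770, and the counts of the lists are read against these. Of 35 other injury and repair genes, 20 were tested in PT-S1 at 24 h, with a median difference of 0.18 against -0.19 for all genes and 60% positive against 29.1%. A single mouse, UNx 3, was the highest animal for 11 of these 20 genes, against 20.0% of all genes tested. At 72 h 22 were tested, with a median of -0.06 against -0.29. In CCD 29 were tested at 24 h (median -0.19 against -0.04) and 27 at 72 h (median -0.08 against 0.01). In PT-S1 at 24 h the smallest p belonged to Anxa2, an annexin (0.62, limma adjusted p = 0.296), and Il34, a ligand of the macrophage receptor Csf1r (0.50, limma adjusted p = 0.296). Both overlapped between groups. Anxa2 ran from 5.0 to 8.8 TPM in sham and from 6.8 to 18.1 TPM in UNx, and Il34 from 18.6 to 22.9 and from 19.6 to 41.8 TPM. In PT-S1 at 72 h the smallest p belonged to the keratin Krt18 (-0.77, limma adjusted p = 0.239) and S100a6 (0.63, limma adjusted p = 0.285). In CCD at 24 h the neutrophil chemokine Cxcl1 averaged 8.17 ± 1.92 TPM (SD) over 4 sham and 2.11 ± 2.17 over 3 UNx animals (-1.74, limma adjusted p = 0.0717), and Krt18 was at -0.31 (limma adjusted p = 0.258). In CCD at 72 h Ccn1, a matricellular protein, was 172 ± 43.0 and 89.6 ± 60.6 TPM (-1.13, limma adjusted p = 0.550) and Gdf15, a stress cytokine, was 821 ± 590 and 263 ± 221 TPM (-1.70, limma adjusted p = 0.596).

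Of 20 ligands, receptors and partners of the members, 10 were tested in each PT-S1 table, with a median of -0.23 and -0.39, and 9 and 10 in CCD, with medians of -0.04 and -0.01. At an unadjusted p under 0.05 the list held 0 higher and 0 lower, 0 and 1, 1 and 2, and 0 and 0 genes in the same order. Tnfsf12, the gene of TWEAK itself, was 4.27, 4.38 and 6.4 TPM in the sham and 2.85, 2.52, 5.70 and 2.95 TPM in the UNx animals of PT-S1 at 24 h. The smallest p in that table belonged to Slc22a17, a receptor of NGAL (-0.38, limma adjusted p = 0.293), and the integrin Itgav (-0.58, limma adjusted p = 0.318). At 72 h it belonged to the integrin Itgb6 (-0.95, limma adjusted p = 0.241) and Traf2, an adaptor of TNF receptors (-0.56, limma adjusted p = 0.254). Itgb6 there averaged 92.1 ± 12.6 TPM over 5 sham and 66.5 ± 20.4 over 5 UNx animals, with overlapping ranges. Its difference averages the log2 values of libraries, not these TPM. In CCD at 24 h Itgb6 averaged 80.9 ± 13.6 TPM over 4 sham and 46.4 ± 9.63 over 3 UNx animals (-0.79, limma adjusted p = 0.0668), while Slc22a17 was 117 ± 14.2 and 159 ± 4.92 TPM (0.45, limma adjusted p = 0.0697). For both genes the sham and UNx animals did not overlap, which was so for 15.1% of all genes tested in CCD at 24 h. In CCD at 72 h Traf2 was at -0.28 and Itgb6 at -0.27 (limma adjusted p of 0.785 and 0.887).

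Of 20 acute phase and STAT3 genes, 9 and 8 were tested in PT-S1, with medians of -0.27 and -0.33, and 13 and 13 in CCD, with medians of -0.11 and -0.01. At an unadjusted p under 0.05 the list held 0 higher and 1 lower, 0 and 1, 0 and 3, and 0 and 1 genes in the same order. Stat3, the transcription factor of the interleukin 6 pathway, averaged 39.3 ± 4.84 TPM over 3 sham and 26.2 ± 2.79 over 4 UNx animals of PT-S1 at 24 h (-0.52, limma adjusted p = 0.254; -0.32 when set against the median gene). Bcl3, another gene of this list, was at 0.54 (limma adjusted p = 0.318). At 72 h in PT-S1 Cebpb was at -0.60 (limma adjusted p = 0.241) and Jak2 at -0.47 (limma adjusted p = 0.251). In CCD at 24 h the kinase Pim1 was 11.7 ± 1.66 and 5.73 ± 2.17 TPM (-0.98, limma adjusted p = 0.0717) and the receptor subunit Il6st was at -0.42 (limma adjusted p = 0.260). In CCD at 72 h Cebpb was at -0.77 and Pim1 at -0.92 (limma adjusted p of 0.579 and 0.835).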

How the data were processed

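Libraries of PT-S1 and CCD tubules were prepared from low-input polyA RNA and sequenced on a NovaSeq, per the labels. The authors deposited 4 tables of TPM, whose sums are equal by construction (1000000), and the submitters' processing notes name STAR, RSEM 1.3.3 and GRCm39. All 69 columns were used. For 47 the name matched a single sample, and for 22 the group and animal only, because library numbers differed. The mean of log2(TPM + 1) over its libraries stood for an animal, with a pseudocount of 1; animals were told apart by the digit that titles join to the treatment. Genes with a mean of at least 1 TPM were tested with limma 3.58.1 in R 4.3.3 (moderated statistics with trend, two-sided, Benjamini-Hochberg over all genes tested, threshold 0.05), after a test on simulated data. The tests stayed within tables, and differences of effects used both tables. Correlations used 100000 permutations of the animal values of a segment, centred on table and group and then exchanged freely across them. The main fits did not pair animals of the same replicate number. Nothing says whether libraries of an animal are separate dissections.

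The members and lists were chosen with earlier results of these data known. All members were named; of each further list, the genes past the threshold or, failing that, the 2 with the smallest p in a table; and as most alike, the 3 genes with the highest Pearson r among those of at least 5 TPM in both tables, passing over predicted genes and pseudogenes. Tnfsf12 was named outside this rule, as the ligand of Tnfrsf12a. Alternatives changed the pseudocount (0.1, 5), filter, scaling, summary, libraries (median correlation under 0.92) and animals.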

Additional observations from a re-analysis of the deposited data

Results flagged for a closer look

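In each group of 4 or 5 animals the highest or lowest animal was set against the rest, and its gap was divided by the range of the group on the log2 scale. Of 60 such groups with a spread, 11 held an animal that stood apart by Dixon's 95% criterion. Chance flags about 1 in 20 when values are independent and normally spread. Several members here lie near 0 TPM and groups of different members share animals, so the count cannot be read against that rate.

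In PT-S1 at 24 h UNx 3 was high for 4 members, and these flags share an animal. The gap was 0.864 of the range for Havcr1 (17.3 TPM against at most 1.67), 0.971 for Lcn2 (14.3 against at most 0.09), 0.873 for Fga (49.4 against at most 17.4) and 0.886 for Fgg (97.3 against at most 13.3).

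In PT-S1 at 72 h UNx 5 was high for Havcr1 (0.901 of the range, 1.28 TPM against at most 0.105). Lcn2 was above 0 in a single animal of each group, sham 3 at 1.06 TPM and UNx 2 at 0.155 TPM, so the gap is the whole range, 1 in both.

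In CCD at 72 h Krt20 was above 0 in sham 4 alone, at 0.10 TPM (1 of the range). Tnfrsf12a was low in sham 4 (0.855, 72.9 TPM against at least 107). Clu was high in sham 2 (0.833, 2438 TPM against at most 892) and low in UNx 4 (0.874, 350 TPM against at least 810).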

How the results depend on the processing

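When a member's difference was recalculated under another setting (omitted animals apart), 373 values kept direction and side of the threshold, 7 passed it anew, as given above, and 25 changed sign. With 0 genes called in PT-S1 at 24 h, the counts became 2 without a low-value filter, 1 with quantile normalization, 1 with median-ratio scaling, 100 with the animal as a random effect (1 member) and 1 without libraries of low correlation. At 72 h (0 called) they became 10 with the random effect and 1 without those libraries. In CCD at 24 h (136 called) they became 1 without a filter and 485 with the random effect (1 member), and at 72 h (82 called) 7 without a filter, 39 with a filter of 5 TPM and 129 without libraries of low correlation. For the change over time in PT-S1 (0 called) they became 1 without a filter and 187 without those libraries. For the segment difference at 24 h (15 called) they became 25 with a pseudocount of 5, 43 without a filter, 9 with 5 TPM, 24 with quantile normalization (2 members), 53 with the random effect (1 member) and 179 without libraries of low correlation (1 member), with 1 member under median-ratio scaling. At 72 h (0 called) they became 1, 2 and 9 without a filter, with the random effect and without those libraries. The cause was not tested.

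Correlations of deviations from the group mean, for animals of the same replicate number, ran from -0.37 to 0.33. Both signs occurred in each table, and these few pairs cannot tell whether the numbers pair the animals. With the number as a replicate block, 80, 0, 0 and 3 genes and 0 members were called in PT-S1 at 24 h and 72 h and CCD at 24 h and 72 h, and Spp1 in PT-S1 at 24 h became -0.080.

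Signs changed for uncalled members only. Without libraries of low correlation Spp1 in PT-S1 became -0.11 at 24 h and 0.25 at 72 h, Fga 0.35, Fgb 0.051 and Fgg 0.27 at 72 h, and Vcam1 in CCD -0.023 at 72 h, while the change over time became 0.036 for Fga and 0.37 for Spp1 in PT-S1 and -0.18 for Vcam1 in CCD. In PT-S1 at 72 h quantile normalization gave 0.090 for Fga, 0.14 for Fgb and 0.24 for Fgg, median-ratio scaling gave 0.092, 0.12, 0.28 and 0.33 for Fga, Fgb, Fgg and Spp1, and the log2 of mean TPM gave 0.0093 for Fga and 0.014 for Spp1. The change over time of Vcam1 in CCD was -0.034 with a pseudocount of 5, -0.13 with quantile normalization, -0.012 with median-ratio scaling, -0.058 with the log2 of mean TPM and -0.0014 with the random effect, which also gave -0.0024 for Lcn2 in CCD at 72 h.

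Leaving out an animal at a time gave 0 to 8 genes in PT-S1 at 24 h, 7 to 78 and 8 to 73 in CCD at 24 h and 72 h, 0 to 1 for the change over time in CCD, and 0 to 163 (0 to 2 members) and 0 to 1 for the segment difference at 24 h and 72 h. The differences that changed sign ran from -0.080 to 0.55 for Spp1 in PT-S1 at 24 h, and at 72 h from -0.46 to 0.14 for Fga, -0.20 to 0.14 for Spp1, -0.30 to 0.056 for Fgb and -0.30 to 0.090 for Fgg. In CCD they ran from -0.015 to 0.27 for Vcam1 at 24 h, and at 72 h from -0.27 to 0.41 for Lcn2 and -0.14 to 0.43 for Vcam1. For the change over time they ran from -0.61 to 0.025 for Spp1 in PT-S1 and, in CCD, from -0.29 to 0.078 for Tnfrsf12a, -0.30 to 0.27 for Vcam1 and -0.081 to 0.35 for Spp1. For the segment difference they ran from -0.16 to 0.48 for Spp1 at 24 h and from -0.58 to 0.063 for Clu at 72 h. Havcr1 and Lcn2 could not be fitted in PT-S1 at 24 h without UNx 3, being under the filter. Values near 0 TPM have no known depth, so a gene listed at 0 may be present.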

Other observations

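Further genes of the injury and acute phase lists were high in UNx 3 of PT-S1 at 24 h, and the examples here were chosen after their values were seen. Lrg1, a secreted acute phase glycoprotein, was 61.1 TPM there, 4.58, 9.26 and 3.75 TPM in the other UNx animals and between 2.34 and 4.84 TPM in sham. C3, the central complement protein, was 23.7 TPM there and between 0.66 and 5.56 TPM elsewhere. Lgals3, the lectin galectin-3, was 16.6 TPM there and at most 2.49 TPM elsewhere. The p21 gene Cdkn1a was instead 18.8 TPM in UNx 4, 14.5 in UNx 3, 8.72 in UNx 2 and 1.41 in UNx 1, against 3.1 to 4.53 TPM in sham. Of the tested genes of each list, UNx 3 was the highest animal for 11 of 20 injury and repair genes, 4 of 10 partner genes and 3 of 9 acute phase genes, and for 20.0% of all genes tested. Sham 1 was the highest for 43.8% of all genes tested.

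The spread between libraries of an animal differed from member to member. In PT-S1 at 24 h the SD between libraries of an animal, on the log2(TPM + 1) scale, was 0.70 for Havcr1, against 1.37 between animal means, but 0.10 against 1.51 for Lcn2 and 0.22 against 1.18 for Fgg. Clu in PT-S1 at 72 h varied more between libraries of an animal (SD 1.16) than between animal means (SD 0.58).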
